A study of Mus musculus with 14 samples.

Results

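The genes described here encode the structural proteins of the extracellular matrix: the collagens, the laminins, and 13 further matrix proteins fixed by name, from fibronectin (Fn1) to agrin (Agrn). They were chosen by symbol alone, and 47 of the 13180 genes in the expression table met the rule. Of these, 17 encode proteins of the basement membrane and 10 encode fibrillar collagens, and the remaining 20 are 6 fibril-associated collagens, 7 other collagens, 4 fibrillins and fibulins, fibronectin, SPARC and biglycan (Bgn). The row of Col7a1 carries the merged symbol of a microRNA that lies within it and was counted as Col7a1. Col4a3bp was left out, since it encodes a lipid transfer protein that is not a collagen. Decorin and lumican (Dcn and Lum), also named in the rule, have no row among the genes analysed here.

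The table covers poly(A) RNA of 4 populations of mouse cells, each with 1 library. The starting line, Oct4-GFP-ESC (called the reporter ES cells below), consists of embryonic stem cells in which green fluorescent protein reports the pluripotency gene Oct4. Its medium held serum and 10 ng/ml of the cytokine LIF, and mitomycin C-treated fibroblasts, which no longer divide, served as feeders. Oct4-GFP-H-ESC (the GFP-high ES cells) are the brightest reporter cells, taken by sorting. DR-ESC still had the reporter on day 8 of neural differentiation in N2B27 medium, were sorted as GFP-positive and went back into medium for embryonic stem cells. NPC(GFP-) are neural progenitors sorted as GFP-negative on day 8. All 4 populations carry the reporter, and the labels name feeders for the Oct4-GFP ES cells without saying whether DR-ESC had them. The 10 histone mark and input samples of the series were not analysed here.

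Basement membranes are thin sheets on which epithelial and other polarised cells rest. Laminins, each assembled from an alpha, a beta and a gamma chain, form one network of the sheet, and type IV collagen forms another. Nidogens and the heparan sulphate proteoglycans perlecan (Hspg2) and agrin join them. Fibrillar collagens such as types I, III and V instead form the long fibres of connective tissue, and fibroblasts are a main source of them. In the early mouse embryo, laminin and type IV collagen surround the epiblast, and the parietal endoderm lays down a thick basement membrane rich in both proteins and in SPARC.

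The promoters of 3 collagen genes are shown because their levels define the contrast between both classes. Col4a1 and Col4a2, the main chains of type IV collagen, lie head to head on chromosome 8 and had the highest log2 ratios of all members in the neural progenitors, whereas Col1a2, a chain of type I collagen, had among the lowest. Each sequence is the RefSeq window of 250 bases before to 50 bases after the gene start (build GRCm38.p6), 5′ to 3′ on the gene's own strand. Capitals mark the 78 bases that the windows of Col4a1 (chr8:11312777-11313076, minus strand) and Col4a2 (chr8:11312555-11312854, plus strand) share, and the CCAAT motifs, on either strand, of Col1a2 (chr6:4505368-4505667, plus strand).
Col4a1: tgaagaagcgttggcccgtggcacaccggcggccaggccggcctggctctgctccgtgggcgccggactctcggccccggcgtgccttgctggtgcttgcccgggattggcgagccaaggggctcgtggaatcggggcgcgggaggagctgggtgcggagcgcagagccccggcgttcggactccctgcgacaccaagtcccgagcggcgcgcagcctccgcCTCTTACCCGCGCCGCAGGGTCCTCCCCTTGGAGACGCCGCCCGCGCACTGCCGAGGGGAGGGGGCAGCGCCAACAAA
Col4a2: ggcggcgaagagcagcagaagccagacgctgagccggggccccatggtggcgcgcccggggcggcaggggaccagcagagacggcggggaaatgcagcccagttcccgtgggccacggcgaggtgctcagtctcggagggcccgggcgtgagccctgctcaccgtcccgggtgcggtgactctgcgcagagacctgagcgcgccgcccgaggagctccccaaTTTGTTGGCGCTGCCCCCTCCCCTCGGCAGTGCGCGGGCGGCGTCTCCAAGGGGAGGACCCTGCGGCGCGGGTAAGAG
Col1a2: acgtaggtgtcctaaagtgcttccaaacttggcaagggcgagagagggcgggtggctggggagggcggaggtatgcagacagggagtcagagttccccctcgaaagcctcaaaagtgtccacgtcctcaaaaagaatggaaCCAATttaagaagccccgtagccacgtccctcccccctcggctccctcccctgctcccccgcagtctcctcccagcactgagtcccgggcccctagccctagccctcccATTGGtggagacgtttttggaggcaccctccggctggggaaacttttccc

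The gene starts used for the windows of Col4a1 and Col4a2 are 21 bases apart. The annotated span of Col4a1 reaches beyond the start used for its window, to base 11312889. It overlaps the annotated span of Col4a2 by 85 bases, so reads from that short stretch could be assigned to either. The windows of Col4a1 and Col4a2 held 74.0 and 73.7% G and C bases, and that of Col1a2 61.0%. The median was 61.3% over the windows of members and 52.7% over all promoter windows. The motif CCAAT (either strand) is in all 3 windows, in 11 of the 39 windows of members (28.2%) and in 37.4% of all 32851 promoter windows. In Col1a2 its first base lies 109 bases before the gene start, with another match on the other strand at the first base of the gene. GGGCGG (either strand) is in all 3 windows too, and was found in 28 of 39 windows of the 34 members with one (71.8%), against 35.7% of all windows. TATAAA (either strand) is in none of the 3, in 3 of the 39 and in 13.6% of all windows. These matches are descriptions of letters and not of bound sites.

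Values are given as FPKM, a level per transcript length and sequencing depth, so that genes can be compared within a library. A difference between libraries is log2((FPKM + 1) ratio), written below as the log2 ratio, and it understates the change of low genes. A gene entered a comparison at 1 FPKM or more in one of its libraries, and it is called higher or lower at 2-fold, a log2 ratio of at least 1 or at most -1. This minimum admits a gene through the library in which it is high. With 1 library per population there is no replicate check and no test, and where comparisons have a library in common they share its error. Over all genes the median log2 ratio was -0.29 for DR-ESC against the reporter ES cells and -0.31 for the GFP-high ES cells against the reporter ES cells, so a member at 0 there lies above most genes. With sums of FPKM set equal these medians became 0.40 and 0.25. The 10 pluripotency markers summed to 4448, 2901 and 2135 FPKM in the reporter ES cells, the GFP-high ES cells and DR-ESC. Their sum was 113 in NPC(GFP-), where all 10 neural progenitor markers were higher than in the GFP-high ES cells, beside 18.5% of all genes.

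**Figure D1:**
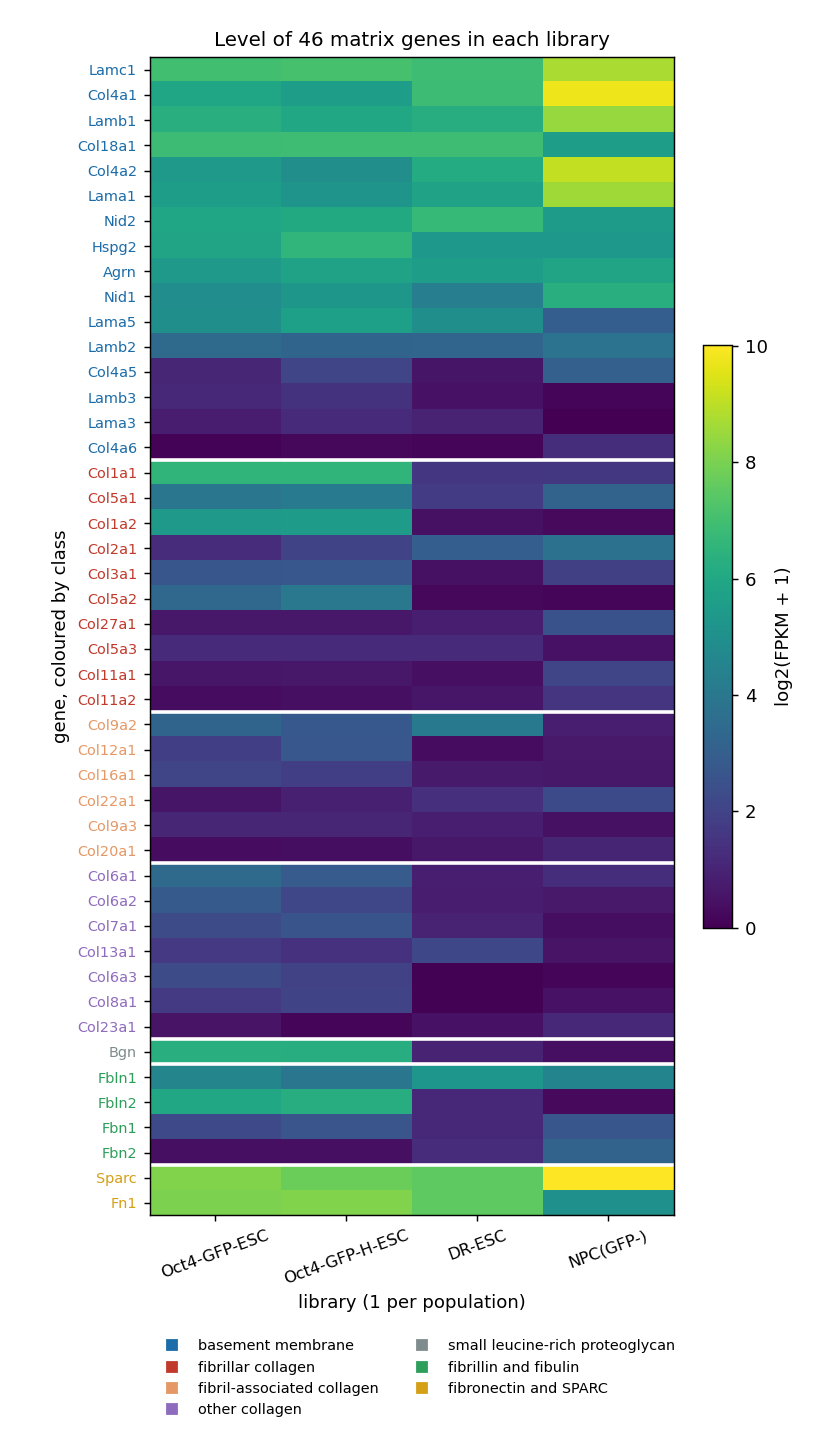
Level of 46 of the 47 matrix genes, as log2(FPKM + 1), in the 4 libraries, with gene names coloured by class and ordered by mean level within a class. Basement membrane genes such as Lamc1 and Col4a1 were high in all 4 libraries, while Col1a1, Col1a2, Bgn and Fbln2 were high only in the libraries of the reporter ES cells and the GFP-high ES cells among the 4 shown.

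The summed level of the members set NPC(GFP-) apart from the 3 stem cell libraries. The 47 genes summed to 1630 FPKM in the reporter ES cells, 1648 in the GFP-high ES cells, 1258 in DR-ESC and 4015 in NPC(GFP-). As a share of all FPKM, which does not depend on scaling between libraries, these sums were 0.237, 0.377, 0.316 and 1.16%. Basement membrane genes made up 43.7% of the members' sum in the reporter ES cells, 46.5% in the GFP-high ES cells, 64.1% in DR-ESC and 71.4% in NPC(GFP-). Fibrillar collagens made up 10.2, 11, 1.21 and 0.902% in the same order. Both ES cell libraries resembled each other in makeup, DR-ESC and NPC(GFP-) had little fibrillar collagen RNA, and NPC(GFP-) alone had a raised total.

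**Figure D2:**
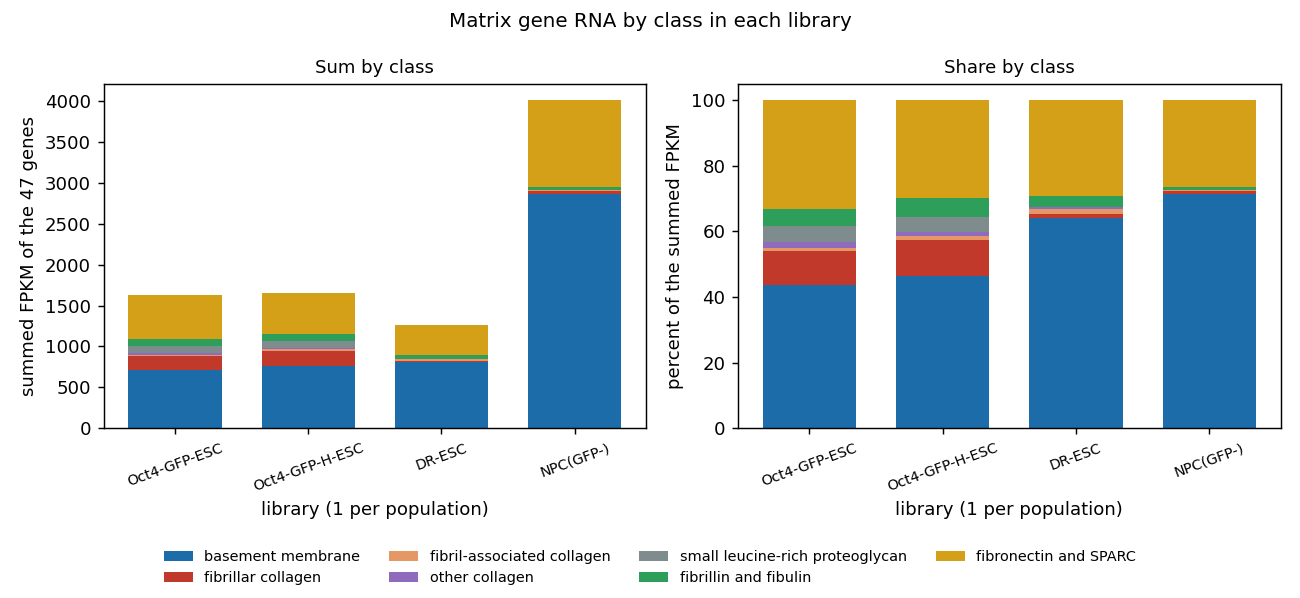
Summed FPKM of the 47 genes by class (left) and the percent each class took of that sum (right) in the 4 libraries. The total was 4015 FPKM in NPC(GFP-) against 1258 to 1648 in the others, and the basement membrane share was 64.1 and 71.4% in DR-ESC and NPC(GFP-) against 43.7 and 46.5% in the embryonic stem cell libraries.

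DR-ESC against the reporter ES cells asks which matrix genes differ between the cells that kept the reporter signal and the starting line. The basement membrane genes stayed near the level of that line, and most fibrillar collagens and other connective tissue genes were far lower. Of the 40 members compared, 16 (40%) were lower and 1 (2.5%) was higher, against 12.2% and 2.95% of all 12260 genes. Among 15 basement membrane genes 1 was lower and 0 were higher, with a median log2 ratio of -0.012. Among 7 fibrillar collagens 5 were lower and 1 was higher, with a median of -2.22. With no FPKM minimum, so that every member enters, the medians were 0.00015 over 17 basement membrane genes and -1.15 over 10 fibrillar collagens. The class medians thus differed by 2.21 with the minimum. Under the 4 other scalings the basement membrane median was 0.43 to 0.77 and the fibrillar median -2.26 to -1.96, with 7 to 9 members higher and 14 to 16 lower. With equal sums 2089 of all genes were higher and 296 lower, against 362 and 1492 as deposited.

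Against the GFP-high ES cells, the contrast had a like size. Of 41 members, 19 (46.3%) were lower and 4 (9.76%) higher in DR-ESC, against 3.91% and 3.65% of all genes. The median log2 ratio was -0.16 for 16 basement membrane genes, of which 4 were lower and 2 higher, and -2.35 for 7 fibrillar collagens, of which 5 were lower and 0 higher. With no FPKM minimum these medians were -0.15 over 17 and -1.24 over 10 genes. Both comparisons share the DR-ESC library, so they are not separate evidence.

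**Figure D3:**
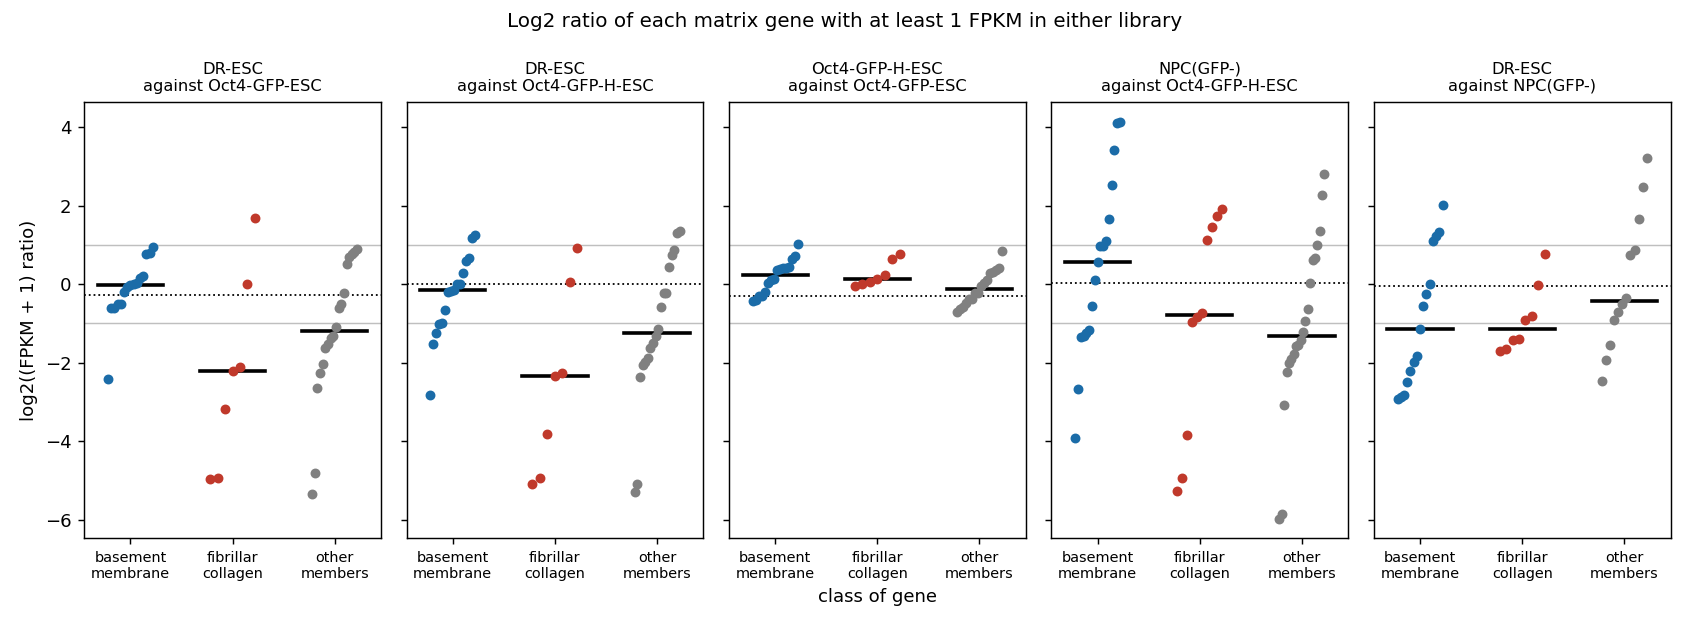
Log2 ratio of each member in the 5 comparisons, split into basement membrane genes, fibrillar collagens and the other members, with points ordered by value, thick bars at class medians, grey lines at the 2-fold size and a dotted line at the median of all genes. Fibrillar collagens lay at a median of -2.22 and -2.35 in both comparisons of DR-ESC with embryonic stem cells, where basement membrane genes lay at -0.012 and -0.16.

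The chains of type I collagen, the main fibre of skin and bone, were low together in DR-ESC and NPC(GFP-). Col1a1 had 92.4 FPKM in the reporter ES cells, 92.4 in the GFP-high ES cells, 2.03 in DR-ESC and 2.06 in NPC(GFP-). Col1a2, whose promoter is shown above, had 41.0, 45.3, 0.349 and 0.206 FPKM. Their log2 ratios in DR-ESC against the reporter ES cells were -4.95 and -4.96. Both ES cell libraries were alike and the other libraries were low. The ratio of Col1a1 to Col1a2 was 2.25 and 2.04 in the ES cell libraries, 5.81 in DR-ESC and 10.0 in NPC(GFP-). Col1a2 was under 1 FPKM in the last 2 of these.

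Col3a1, Col5a1 and Col5a2, chains of the type III and type V collagens that assemble with type I fibres, were also low in DR-ESC. Col3a1 had 5.41, 5.63, 0.376 and 2.72 FPKM in the reporter ES cells, the GFP-high ES cells, DR-ESC and NPC(GFP-). Col5a2 had 9.43, 15.1, 0.150 and 0.12 FPKM, a log2 ratio of -3.18 in DR-ESC against the reporter ES cells. Col5a1 had 14.1, 16.7, 2.46 and 8.08 FPKM, so it was lower in DR-ESC (-2.12) but less far below the sorted stem cells in NPC(GFP-) (-0.96). Col5a3, another type V chain, was not lower in DR-ESC, with 1.38, 1.31, 1.38 and 0.385 FPKM.

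Not every fibrillar collagen was lower in DR-ESC. Col2a1, the main collagen of cartilage, which is also transcribed in the early neural tube and notochord of the mouse, had 1.44 FPKM in the reporter ES cells, 3.15 in the GFP-high ES cells, 6.90 in DR-ESC and 12.8 in NPC(GFP-). It was the only member called higher in DR-ESC than in the reporter ES cells (log2 ratio 1.70). Against the GFP-high ES cells its log2 ratio was 0.93, just short of the 2-fold size. Col27a1, Col11a1 and Col11a2, low fibrillar collagens also known from cartilage, were under 1 FPKM in the other 3 libraries and had 4.8, 3.23 and 1.85 FPKM in NPC(GFP-). Fibrillar collagen RNA in NPC(GFP-) was thus of a different makeup from that of the embryonic stem cell libraries, where type I chains led.

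Collagens outside both classes mostly had the order of type I collagen. Type VI collagen, a beaded filament of connective tissue, had Col6a1 at 10.1 FPKM in the reporter ES cells, 6.37 in the GFP-high ES cells, 0.775 in DR-ESC and 1.51 in NPC(GFP-). Col6a2 had 6.21, 3.40, 0.747 and 0.627 FPKM, and Col6a3 3.94, 2.82, 0.0364 and 0.115. Col12a1, a fibril-associated collagen, had 2.66, 5.52, 0.272 and 0.616 FPKM. The anchoring fibril gene Col7a1 had 3.88, 5.10, 0.962 and 0.288 FPKM, and its log2 ratio of -1.31 against the reporter ES cells was -0.88 with equal sums. All these genes were higher in both embryonic stem cell libraries than in both others, though Col6a3 had at most 3.94 FPKM there. Col9a2, a fibril-associated chain of cartilage, differed from these in DR-ESC, where it was highest, with 8.42, 5.75, 15.7 and 0.801 FPKM, and was low in NPC(GFP-) as they were. The 7 remaining collagens (Col8a1, Col9a3, Col13a1, Col16a1, Col20a1, Col22a1 and Col23a1) lay between 0.0536 and 3.79 FPKM in all libraries.

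Biglycan and fibulin-2 were as far below the ES cells as type I collagen. Fbln2 encodes a glycoprotein of elastic fibres and some basement membranes, and had 61.1 FPKM in the reporter ES cells, 74.7 in the GFP-high ES cells, 1.20 in DR-ESC and 0.204 in NPC(GFP-). Its log2 ratios in DR-ESC were -4.82 and -5.10 against both. Bgn, a small proteoglycan that binds collagen fibres, had 78.1, 75.2, 0.927 and 0.321 FPKM and a log2 ratio of -5.36 in DR-ESC against the reporter ES cells. Fbln1, of the same family as Fbln2, was not lower in DR-ESC, with 22.6, 14.1, 37.4 and 22.1 FPKM. Fbln1 had the highest log2 ratio of the members in DR-ESC against the GFP-high ES cells (1.35). The fibrillins of elastic microfibrils also parted, with Fbn1 at 3.69, 5.22, 1.19 and 5.39 FPKM and Fbn2 at 0.314, 0.330, 1.43 and 8.22. The log2 ratio of Fbn1 in DR-ESC against the reporter ES cells, -1.10, was -0.62 with equal sums.

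In 13 of the 47 members both embryonic stem cell libraries were at least 2-fold above both DR-ESC and NPC(GFP-), an order found in 2.18% of all genes. These were 3 of 10 fibrillar collagens (Col1a1, Col1a2 and Col5a2), 7 of the 13 fibril-associated and other collagens, Bgn, Fbln2 and 1 of 17 basement membrane genes. The laminin chains Lamb3 and Lama3, known from the skin, were low, with at most 1.8 and 1.3 FPKM, both in the GFP-high ES cells, and 0.402 and 0.983 in DR-ESC.

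Fibroblast markers moved with these genes. The 16 markers that are not members summed to 1029 FPKM in the reporter ES cells, 687 in the GFP-high ES cells, 122 in DR-ESC and 719.6 in NPC(GFP-). Vim, which neural progenitors also express, gave 643 of the last sum. In DR-ESC 12 of 16 were lower than in the reporter ES cells and 13 of 16 lower than in the GFP-high ES cells, and 0 were higher in either comparison, beside 12.2% and 3.91% of all genes lower. In NPC(GFP-) 12 of 16 were lower and 2 higher than in the GFP-high ES cells, beside 16.2% and 18.5% of all genes. Of the 16, 0 were under 1 FPKM in the ES cell libraries, 8 in DR-ESC and 9 in NPC(GFP-). S100a4 was listed at 0 in both DR-ESC and NPC(GFP-), with 94.7 and 58.1 FPKM in the embryonic stem cell libraries. Acta2 had 99.2, 87.7, 4.35 and 9.13 FPKM, and Postn 8.28, 5.80, 0.0300 and 0.0959. Of the 16, Lox is also in the list of collagen processing and Pdgfra in that of endoderm. The part of feeder RNA in the fibrillar collagen values was not tested. In these bulk samples, fewer cells of a type and less RNA per cell cannot be told apart.

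The core of the basement membrane was well expressed in every stem cell library. Lamc1, the gamma chain shared by most laminins, had 127 FPKM in the reporter ES cells, 136 in the GFP-high ES cells, 120.3 in DR-ESC and 430.5 in NPC(GFP-). Lamb1 had 76.2, 61.5, 75.6 and 356 FPKM, and Lama1, an alpha chain made in the earliest embryo, 48.1, 35.3, 53.7 and 384. The 3 stem cell libraries lay close together, and NPC(GFP-) was far above them. In DR-ESC against the reporter ES cells the log2 ratios were -0.075 for Lamc1, -0.012 for Lamb1 and 0.16 for Lama1, of which the first 2 turned positive under all 4 other scalings. Their ranks by FPKM among all genes of NPC(GFP-) were 112, 137 and 125.

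Col4a1 and Col4a2 moved as a pair. Col4a1 had 59.2 FPKM in the reporter ES cells, 47.7 in the GFP-high ES cells, 115 in DR-ESC and 857 in NPC(GFP-). Col4a2 had 40.3, 30.3, 69.9 and 543. DR-ESC lay above both embryonic stem cell libraries in both genes, and NPC(GFP-) lay far above all. The ratio of Col4a1 to Col4a2 within a library stayed between 1.47 and 1.64. In DR-ESC the log2 ratios of Col4a1 and Col4a2 were 1.25 and 1.18 against the GFP-high ES cells, past the 2-fold size. Against the reporter ES cells they were 0.94 and 0.78, short of it, and between 1.39 and 1.73 and between 1.22 and 1.56 under the 4 other scalings. Col4a1 ranked 1649 in the reporter ES cells, 469 in DR-ESC and 38 in NPC(GFP-). The minor type IV chains of the X chromosome, Col4a5 and Col4a6, were also highest in NPC(GFP-). Col4a5 had 1.10, 3.23, 0.476 and 7.33 FPKM, and Col4a6 0.0772, 0.147, 0.109 and 1.46.

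The linkers of the sheet did not move together. Nid2 had 59.9, 65.9, 104.7 and 44.5 FPKM in the reporter ES cells, the GFP-high ES cells, DR-ESC and NPC(GFP-), highest in DR-ESC, while Nid1 had 28.7, 38.6, 18.6 and 77.3, lowest there. The ratio of Nid2 to Nid1 was 2.08, 1.71, 5.63 and 0.576 in that order. The log2 ratio of Nid1 in DR-ESC against the GFP-high ES cells was -1.01, just past the 2-fold size, and -0.89 with equal sums. Perlecan (Hspg2) had 56.8, 94.8, 39.4 and 39.6 FPKM, and agrin 41.2, 52.9, 47.7 and 56.5. Agrin thus differed by less than 2-fold between any of the 4 libraries.

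The main alpha chains of laminin differed in opposite directions in NPC(GFP-). Lama5, the alpha chain of the laminin most used to culture pluripotent cells, had 30.8 FPKM in the reporter ES cells, 48.9 in the GFP-high ES cells, 30.8 in DR-ESC and 6.86 in NPC(GFP-). The ratio of Lama1 to Lama5 was 1.56, 0.721, 1.74 and 56.1 in that order. Lama5 was therefore lowest where Lama1 was highest. Col18a1, a basement membrane collagen and the source of endostatin, was near level at 115, 118 and 118 FPKM in the stem cell libraries and had 46.6 in NPC(GFP-). Lamb2 stayed between 8.45 and 13 FPKM in all 4.

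**Figure D4:**
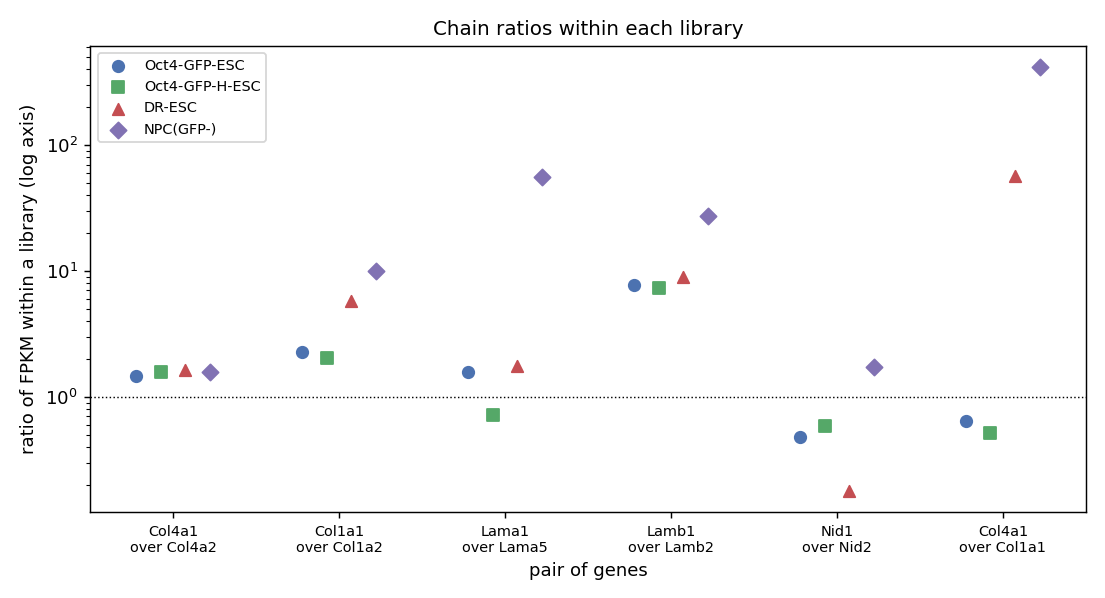
Ratio of FPKM of 6 pairs of genes within each library, on a log axis, which does not depend on scaling between libraries. The ratio of Col4a1 to Col4a2 was 1.47 to 1.64 in all 4 libraries, while Lama1 over Lama5 reached 56.1 and Col4a1 over Col1a1 reached 416 in NPC(GFP-).

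NPC(GFP-) against the GFP-high ES cells compares the neural progenitors with the sorted stem cells. All 47 members could be compared, of which 14 (29.8%) were higher and 20 (42.6%) lower, against 18.5% and 16.2% of all genes. Among 17 basement membrane genes 6 were higher and 6 lower, with a median log2 ratio of 0.57. Among 10 fibrillar collagens 4 were higher and 3 lower, with a median of -0.79. The highest basement membrane genes were the main embryonic chains, with log2 ratios of 4.14 for Col4a1, 4.12 for Col4a2, 3.41 for Lama1, 2.51 for Lamb1 and 1.66 for Lamc1. The lower basement membrane genes included Lama5 (-2.67), and also Lamb3, Col18a1, Hspg2 and Lama3, of which these last 4 were not called under at least 1 other scaling.

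Fibronectin and SPARC, abundant in every stem cell library, moved in opposite directions. Sparc encodes a glycoprotein that binds collagen, and had 280.5 FPKM in the reporter ES cells, 214 in the GFP-high ES cells, 185 in DR-ESC and 1034 in NPC(GFP-), where it ranked 22. Fn1 had 259.8, 279, 184 and 32 FPKM. Fn1 was the most abundant member in the GFP-high ES cells and was low in the neural progenitors, with a log2 ratio of -3.08 to that library, and Sparc had 2.26. In DR-ESC both stayed within the 2-fold size of both embryonic stem cell libraries.

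Of the 47 members, 10 were at least 2-fold higher in NPC(GFP-) than in each of the 3 other libraries, an order found in 10.9% of all genes. They were Col4a1, Col4a2, Col4a6, Lama1, Lamb1, Lamc1, Sparc, Fbn2, Col11a1 and Col27a1. By level, 5 of these, Sparc, Col4a1, Col4a2, Lamc1 and Lama1, gave 80.9% of the members' sum in NPC(GFP-). A further 5 members, among them Fn1, Lama5, Col18a1 and Col9a2, were at least 2-fold lower in NPC(GFP-) than in each other library, against 8.15% of all genes. No member was at least 2-fold higher in DR-ESC than in the 3 other libraries, which 0.319% of all genes were.

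DR-ESC against NPC(GFP-) compares the cells sorted as GFP-positive and as GFP-negative on day 8, the former grown on afterwards. Of 35 members, 15 (42.9%) were lower and 7 (20%) higher in DR-ESC, against 14.2% and 11.6% of all genes. The medians were -1.15 for 15 basement membrane genes and -1.15 for 8 fibrillar collagens. Their difference depended on the setting, from -0.90 (basement membrane lower) with the abundance trend removed to 0.29 with no FPKM minimum, and it was -0.77 with a core list of 10 basement membrane genes and -0.73 with a minimum of 5 FPKM. The lowest were Col4a2 (-2.94), Col4a1 (-2.89), Lama1 (-2.82), Col4a5 (-2.50), Sparc (-2.48) and Lamb1 (-2.22). The 7 higher members included Col9a2 (3.21), Fn1 (2.48), Lama5 (2.02), Col13a1 (1.67), Col18a1 (1.32) and Nid2 (1.22), all of which stayed higher under the 4 other scalings.

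Markers of the primitive and parietal endoderm were, like the main basement membrane genes, highest in NPC(GFP-). The 18 markers with a row summed to 153 FPKM in the reporter ES cells, 80.7 in the GFP-high ES cells, 73.9 in DR-ESC and 294 in NPC(GFP-). Of these, 0 were listed at 0 in any library, and the sum in DR-ESC was near that in the GFP-high ES cells. Between these 2 libraries, 2 of 15 markers were higher and 1 lower in DR-ESC, beside 3.65% and 3.91% of all genes. In NPC(GFP-) 13 of 18 were higher and 1 lower than in the GFP-high ES cells, beside 18.5% and 16.2% of all genes. In DR-ESC 14 of 17 were lower and 0 higher than in NPC(GFP-), beside 14.2% and 11.6% of all genes. Srgn had 36.1, 9.66, 8.64 and 48.0 FPKM, and Dab2, an endocytic adaptor of visceral and parietal endoderm, 18.3, 9.16, 6.46 and 27.9. The endoderm transcription factors Gata4 and Gata6, named after their values were seen, had 39.0 and 15.7 FPKM in NPC(GFP-) against 14.1 and 7.25 in the reporter ES cells and 7.60 and 3.80 in DR-ESC. Amn, a gene of visceral endoderm, went the other way, with 15.4, 4.18, 0.856 and 0.0238 FPKM. Neural progenitor markers summed to 615 FPKM in that library and to 19.0 to 82.1 in the others. Endothelial markers summed to 64.1, 63.6, 57.2 and 17.7 FPKM and neuron markers to 169, 73.6, 52.6 and 494. The part of endoderm cells in the level of laminin, type IV collagen and SPARC in NPC(GFP-) or DR-ESC was not tested.

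**Figure D5:**
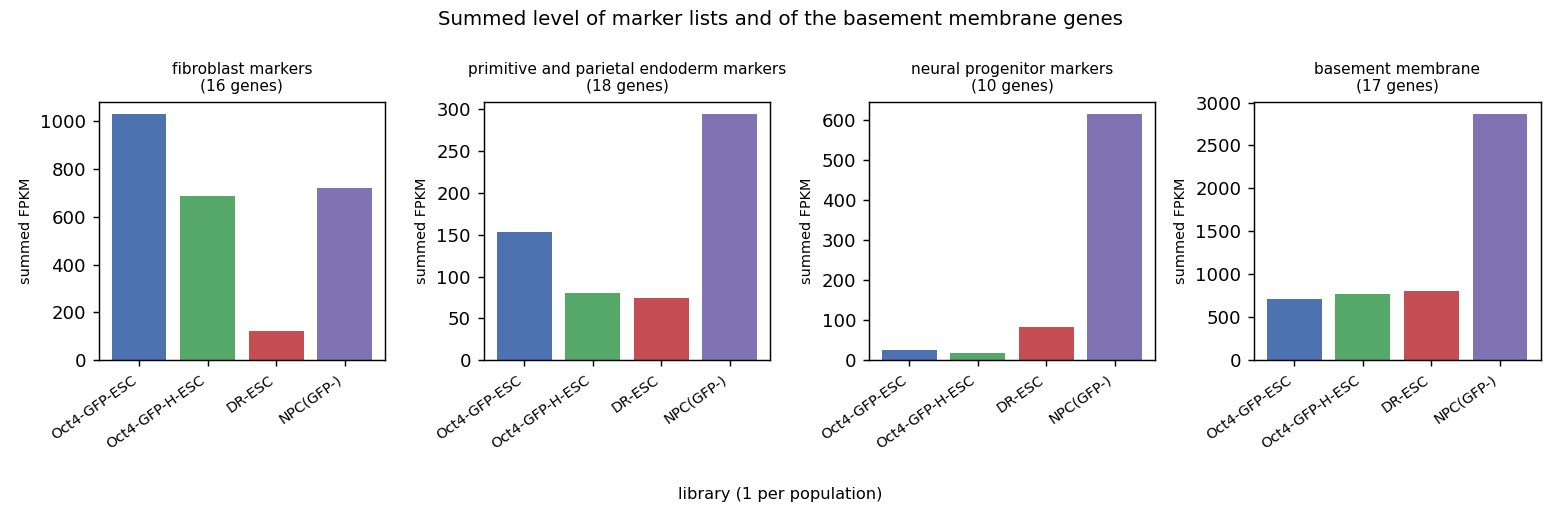
Summed FPKM of 16 fibroblast, 18 primitive and parietal endoderm and 10 neural progenitor markers that are not members, beside the 17 basement membrane genes, in the 4 libraries. Endoderm and neural progenitor markers and basement membrane genes were all highest in NPC(GFP-), at 294, 615 and 2865 FPKM. Fibroblast markers were lowest in DR-ESC, at 122, and Vim alone gave 643 of their 719.6 FPKM in NPC(GFP-).

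The GFP-high ES cells against the reporter ES cells compares the sorted cells with the starting line. Of 39 members, 1 (2.56%) was higher and 0 were lower, against 0.983% and 2.67% of all genes. The higher one was Col4a5, with 3.23 against 1.10 FPKM (log2 ratio 1.01). The medians were 0.24 for 16 basement membrane genes and 0.14 for 7 fibrillar collagens. Col1a1 had a log2 ratio of -0.00037 and Bgn of -0.054, so neither connective tissue gene was lower in the sorted library, and both had positive ratios under the 4 other scalings. Hspg2 and Lama5 had log2 ratios of 0.73 and 0.65, and both were past the 2-fold size under all 4 other scalings, where 3 to 8 members were higher. With equal sums 582 of all genes were higher and 26 lower, against 118 and 320 as deposited. Lama1, Lamb1, Col4a1 and Col4a2 had ratios between -0.44 and -0.30, each of which turned positive under at least 1 other scaling.

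Enzymes that make and join collagen also differed between the libraries. Of 23 genes of collagen processing and cross-linking, 8 were lower and 0 higher in DR-ESC than in the reporter ES cells, beside 12.2% and 2.95% of all genes, with a median log2 ratio of -0.69 beside -0.29. Lox, which cross-links fibrillar collagen and elastin, had 6.69, 18.4, 0.163 and 0.0722 FPKM in the reporter ES cells, the GFP-high ES cells, DR-ESC and NPC(GFP-), and is also in the fibroblast list. Loxl3 had 9.74, 9.26, 0.775 and 1.81 FPKM, Loxl1 7.26, 6.91, 1.43 and 1.05, and Fkbp10, a chaperone of type I collagen, 23.6, 19.1, 5.64 and 1.48. These 4 were higher in both embryonic stem cell libraries than in both others. In NPC(GFP-) 9 of 23 were higher and 8 lower than in the GFP-high ES cells, beside 18.5% and 16.2% of all genes. Pxdn, which makes the sulfilimine bond of type IV collagen, and the collagen chaperone Serpinh1, both named after their values were seen, had 43.8 and 321 FPKM in NPC(GFP-) against 5.10 and 85.1 in the GFP-high ES cells.

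Receptors and proteases of the matrix showed mixed differences. Of 18 receptors compared, 5 were lower and 0 higher in DR-ESC than in the reporter ES cells (median -0.51), where 12.2% of all genes were lower and 2.95% higher (median -0.29). Cd44, a hyaluronan receptor, had 12.2, 12.9, 0.248 and 0.927 FPKM, Bcam, which binds the laminin alpha chain of Lama5, 63.6, 82.5, 26.6 and 5.87, and Itga5, the fibronectin integrin, 24.9, 23.6, 10.3 and 6.97. Bcam and Itga5 were lowest in NPC(GFP-), but the syndecan gene Sdc3, with 6.81, 6.62, 1.43 and 18.2 FPKM, was highest there. Of 19 receptors, 3 were higher and 8 lower in NPC(GFP-) than in the GFP-high ES cells, beside 18.5% and 16.2% of all genes. Of 18 proteases and inhibitors, 7 were lower and 1 was higher in DR-ESC than in the reporter ES cells (median -0.71). Beside these, 12.2% of all genes were lower and 2.95% higher (median -0.29). Mmp14, a membrane collagenase, had 67.4, 43.1, 13 and 7.48 FPKM, and Timp1, an inhibitor of such enzymes, 72.8, 48.3, 9.18 and 1.89.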

How the data were processed

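The authors deposited 1 table for 4 poly(A) RNA-seq libraries, with log2 values per gene that its name calls normalised FPKM. The values were read as log2(FPKM + 1), since 99.7% of the non-zero ones gave numbers of at most 6 significant digits when so reversed. The submitters' processing notes name TopHat2 2.0.9, Bowtie 0.12.8, CASAVA 1.8, HTSeq, DESeq2 and the build mm10, with no role. The sources used here do not give the program behind the FPKM, any further scaling or read depth, so no interval or floor is given, and the labels do not say whether reads kept their strand. Of 13199 rows, 19 had a date in place of a symbol and were left out. The highest library of every row is above 1 FPKM, and genes that are low throughout are thus absent.

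Computation used Python 3.11.15, numpy 2.4.6, pandas 2.3.3 and matplotlib 3.10.9, and was tested on simulated data. All 47 members matched the RefSeq table of GRCm38.p6, the RefSeq form of mm10. Members, classes and lists were chosen with earlier results of these data known. Members with at least 5 FPKM in any library (32) and chains of the laminins and of collagens I, IV and V were to be named, and in each other list at most 4 genes with the largest log2 ratio of DR-ESC against Oct4-GFP-ESC. Col6a3, Col8a1, Col9a3, Col11a1, Col11a2, Col13a1, Col16a1, Col20a1, Col22a1, Col23a1 and Col27a1 were named after their values were seen. Alternatives were pseudocounts of 0.1 and 5, no minimum or 5 FPKM, a 4-fold size, 4 scalings (median ratio set to 0, equal sums, upper quartile, and removal of the abundance trend by a running median over 401 genes), and a core list of 10 basement membrane genes. Values of single genes that are not given are not reported here.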

Additional observations from a re-analysis of the deposited data

How the results depend on the processing

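Of 147 values recomputed under an alternative, 103 kept their direction and side of the threshold or stayed within the tolerance used, 38 counts or shares moved, 5 differences of medians changed sign and 1 fell under the size of 1. The difference of the basement membrane and fibrillar medians in DR-ESC against either embryonic stem cell library stayed above 1 under all alternatives run. The difference for NPC(GFP-) against the GFP-high ES cells, 1.36, was 0.67 with a pseudocount of 5. The differences near 0 changed sign: for the GFP-high ES cells against the reporter ES cells (0.10) to -0.041 with a minimum of 5 FPKM and -0.023 with the core list, and for DR-ESC against NPC(GFP-) (-0.0016) to 0.13 with a pseudocount of 5, 0.29 with no minimum and 0.067 with equal sums. The latter also moved to -0.90 with the trend removed, -0.77 with the core list and -0.73 with a minimum of 5 FPKM. For DR-ESC against the reporter ES cells, members higher (1) numbered 3 with a pseudocount of 0.1, 0 with 5 or a 4-fold size, 8 with the median ratio set to 0 or upper-quartile scaling, 9 with equal sums and 7 with the trend removed, and members lower (16) numbered 8 with a pseudocount of 5 and 10 with a minimum of 5 FPKM. Under all 4 scalings 14 of these 16 stayed lower, Col7a1 and Fbn1 being the exceptions. For DR-ESC against the GFP-high ES cells, members higher (4) numbered 7 with a pseudocount of 0.1 and 0 at 4-fold, and members lower (19) 8 with a pseudocount of 5 and 10 at 4-fold. For the GFP-high ES cells against the reporter ES cells, members higher (1) numbered 3 with a pseudocount of 0.1 or the trend removed, 0 with a pseudocount of 5, a minimum of 5 FPKM or 4-fold, 6 with the median ratio set to 0 or upper-quartile scaling and 8 with equal sums. For NPC(GFP-) against the GFP-high ES cells, members higher (14) numbered 8 with a pseudocount of 5 or a minimum of 5 FPKM and 6 at 4-fold, and members lower (20) 10 with a pseudocount of 5 or 4-fold. For DR-ESC against NPC(GFP-), members lower (15) numbered 9 with a pseudocount of 5 and 6 at 4-fold, and members higher (7) 3 at 4-fold. The basement membrane share of the members' sum in the reporter ES cells, the GFP-high ES cells, DR-ESC and NPC(GFP-) was 34.9, 37.1, 53.7 and 69.6% with the core list and 65.4, 66.3, 90.6 and 97.1% without Sparc and Fn1, and in DR-ESC it was 64.6% over members with at least 5 FPKM in any library. Apart from the construction of each alternative, the cause of these shifts was not tested. No paired analysis was possible because each population has 1 library. Read depth is unknown, so the precision of low values cannot be given.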
